A study of Mus musculus with 8 samples.

Results

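The 71 genes described here are mouse histone genes that met a rule on their symbols, out of 21631 protein-coding genes on chromosomes 1 to 19 and X. They were chosen by symbol: 67 by their current symbols (H1f, H2ac, H2bc, H3c or H4c followed by a digit) and 4 (H2aw, H2bu2, H4bc24 and H4f16) by an older Hist symbol. H4bc24 is an H2B gene by its older symbol, Hist1h2br. By type there were 10 linker histone H1, 18 H2A, 18 H2B, 12 H3 and 13 H4 genes. The Hist1 cluster on chromosome 13 held 54 of them, Hist2 on chromosome 3 held 10, Hist3 on chromosome 11 held 2 and Hist4 on chromosome 6 held 1. The other 4, H1f0 and H1f7 on chromosome 15 and H1f8 and H1f10 on chromosome 6, met the symbol rule but lie outside the clusters and code for replacement or germline linker histones. The regions described are those listed within 1 kb of an end of these genes, each counted once: 8 of 14401 in the 0.1 µM list, 3 of 11130 in the 0.5 µM list and 17 of 15894 in the 1 µM list. The presence of a region chose what is described, so the counts below are a description with no test.

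Replication-dependent histone genes supply the histones that package newly copied DNA, and their transcription rises in S phase. They lack introns, lie close together in clusters, and their mRNAs end in a stem-loop in place of a poly(A) tail. H2A, H2B, H3 and H4 form the core of the nucleosome, around which DNA is wrapped, and H1 binds the linker DNA. Many H2A and H2B genes stand head to head and share the DNA between their starts as a promoter.

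ATAC-seq, which maps open chromatin through cutting by the Tn5 transposase, was done in Hepa-1c1c7, a cell line from a mouse liver tumour. Cells were given potassium chromate, a source of hexavalent chromium, at 0.1, 0.5 or 1 µM for 72 h, or were left untreated at 0 µM, with 2 libraries per group and 8 in all, which the labels do not say are separate cultures. Each treated dose has 1 deposited list of regions, which names the untreated libraries as its partner, and no list of untreated cells was used here. There is therefore no replicate error, and the sources used here do not say whether a listed region was more open in treated than in untreated cells. Absence from a list does not show that a site is closed. In bulk cells, more cells with an open site and a more open site per cell cannot be told apart. The lists share the untreated libraries, and the labels of the 1 µM libraries carry another prefix than all others, which cannot be told apart from the dose.

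The first sequences printed are short stretches between the facing ends of H2A and H2B genes. At 1 µM, 9 of the 17 regions at histone gene ends overlapped such a stretch and 8 did not. The stretch between H2ac12 and H2bc12 (177 bp, 13:22035644-22035820) and that between H2ac11 and H2bc11 (248 bp, 13:22042950-22043197) held a region in all 3 lists. The stretch between H2ac6 and H2bc4 (239 bp, 13:23683960-23684198) held one at 0.1 and 1 µM. Those between H2ac8 and H2bc8 (179 bp, 13:23571221-23571399) and between H2bc23 and H2ac23 (167 bp, 13:21810200-21810366) held none and are shown for comparison. They are printed 5′ to 3′ on the plus strand of GRCm38.p6 (mm10 in the authors' naming), from RefSeq. Except for the stretch between H2ac12 and H2bc12, they were chosen after their values were seen. Capitals mark the CCAAT box (CCAAT), the TATA box (TATAAA) and the octamer known from H2B promoters (ATTTGCAT), on either strand.
H2ac12/H2bc12: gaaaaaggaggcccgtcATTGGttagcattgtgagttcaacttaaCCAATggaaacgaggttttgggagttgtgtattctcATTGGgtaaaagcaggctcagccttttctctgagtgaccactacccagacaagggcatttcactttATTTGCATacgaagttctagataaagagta
H2ac11/H2bc11: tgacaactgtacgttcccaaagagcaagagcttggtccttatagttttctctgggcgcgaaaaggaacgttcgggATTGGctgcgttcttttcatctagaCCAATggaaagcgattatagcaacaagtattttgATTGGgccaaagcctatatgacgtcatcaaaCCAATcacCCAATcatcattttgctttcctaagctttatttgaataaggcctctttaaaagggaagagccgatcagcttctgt
H2ac6/H2bc4: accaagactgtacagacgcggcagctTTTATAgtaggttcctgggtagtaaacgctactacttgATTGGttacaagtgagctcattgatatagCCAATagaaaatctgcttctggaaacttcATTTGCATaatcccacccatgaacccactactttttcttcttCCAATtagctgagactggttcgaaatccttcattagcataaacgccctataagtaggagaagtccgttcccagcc
H2ac8/H2bc8: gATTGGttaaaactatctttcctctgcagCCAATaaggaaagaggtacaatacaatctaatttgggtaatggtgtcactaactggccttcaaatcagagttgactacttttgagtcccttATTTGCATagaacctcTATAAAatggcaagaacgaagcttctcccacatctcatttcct
H2bc23/H2ac23: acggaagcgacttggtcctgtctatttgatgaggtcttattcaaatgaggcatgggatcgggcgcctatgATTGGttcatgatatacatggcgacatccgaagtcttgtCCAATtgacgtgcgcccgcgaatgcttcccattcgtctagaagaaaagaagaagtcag

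Outside such pairs, the 250 bases before the start of H4c1 (minus strand, 13:23761250-23761499) and of H4c4 (plus strand, 13:23581318-23581567) were overlapped by listed regions. They are shown because both genes code for histone H4 and differ in motifs. Capitals mark the same motifs and GGTCCG, part of the H4 promoter element bound by the factor HINFP.
H4c1: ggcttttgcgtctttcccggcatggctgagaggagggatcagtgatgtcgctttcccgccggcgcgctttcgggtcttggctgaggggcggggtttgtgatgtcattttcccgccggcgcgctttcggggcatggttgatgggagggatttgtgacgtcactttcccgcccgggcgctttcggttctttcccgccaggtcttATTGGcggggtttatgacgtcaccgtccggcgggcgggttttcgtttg
H4c4: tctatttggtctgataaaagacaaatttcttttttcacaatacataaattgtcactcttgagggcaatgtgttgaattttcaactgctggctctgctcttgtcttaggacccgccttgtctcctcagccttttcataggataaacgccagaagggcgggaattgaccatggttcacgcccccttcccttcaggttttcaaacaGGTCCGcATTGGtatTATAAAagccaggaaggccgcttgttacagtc

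Promoter sequence was matched for 66 of the 71 genes, all but H2bc4, H2bc21, H3c1, H3c7 and H4c14, and each motif was searched on both strands in the 250 bases before 67 annotated starts. The CCAAT box was found before 18 of 18 H2A and 17 of 17 H2B starts, 8 of 10 H3, 7 of 10 H1 and 3 of 12 H4 starts, against 35.6% of 21045 protein-coding promoters of the same length. The octamer was found before 7 of 18 H2A and 7 of 17 H2B starts and before none of the others, against 1.59% of all promoters. GGTCCG was found before 9 of 12 H4 starts, against 8.5% of all promoters. AAACACA, the AC box of H1 promoters, was found before 5 of 10 H1 starts (5.50% of all promoters) and TATAAA before 29 of 67 histone starts (11.7%). H2A and H2B starts of a pair share bases within these windows, so their counts are not separate. In the stretches printed above, no match of one motif overlapped a match of another.

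With all listed regions, histone genes were near the background at 0.1 µM, below it at 0.5 µM and above it at 1 µM, counted by genes with a listed region no more than 1 kb from either end. At 0.1 µM, 15 of 71 histone genes (21.1%) had a region, against 19.5% of all protein-coding genes. At 0.5 µM, 6 of 71 (8.45%) had one, against 18.7%. At 1 µM, 28 of 71 (39.4%) had one, against 23.0%. In all 3 lists, a region was present for 6 of 71 (8.45%), against 14.2%. The 28 genes at 1 µM include every histone gene found in either other list.

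These gene counts exceed the number of regions, because histone genes lie close together. At 0.1, 0.5 and 1 µM there were 1.88, 2 and 1.65 histone genes per region, against 1.00, 1.04 and 1.02 genes per region over all protein-coding genes. The values at 0.1 and 1 µM relative to the background depended on regions of low score and small width. With only the regions above the list's median score, 6, 0 and 8 of 71 histone genes had one (8.45%, 0% and 11.3%), against 11.2%, 10.8% and 13.3% of all protein-coding genes, and 0 of 71 had one in all 3 lists, against 6.77%. With only the regions above the median width, 4, 0 and 8 of 71 had one (5.63%, 0% and 11.3%), against 13.3%, 12.2% and 15.4%, and 0 of 71 in all 3 lists, against 9.01%. Histone genes were thus below the background at every dose under both of these settings. At 0.5 µM, the regions at H2ac12/H2bc12 and H4c1 scored 10, equal to the list's median, and so were left out by the score setting. Counted at annotated starts alone, 12, 5 and 23 of 66 histone genes had one at 0.1, 0.5 and 1 µM (18.2%, 7.58% and 34.8%), against 20.5%, 19.6% and 24.1%. With lists of equal length, 11 of 71 (15.5%) had one at 0.1 µM, against 16.4%, and 17 of 71 (23.9%) at 1 µM, against 18.1%. The 0.5 µM list is the shortest and sets this length, so its value (8.45% against 18.7%) could not change.

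**Figure D1:**
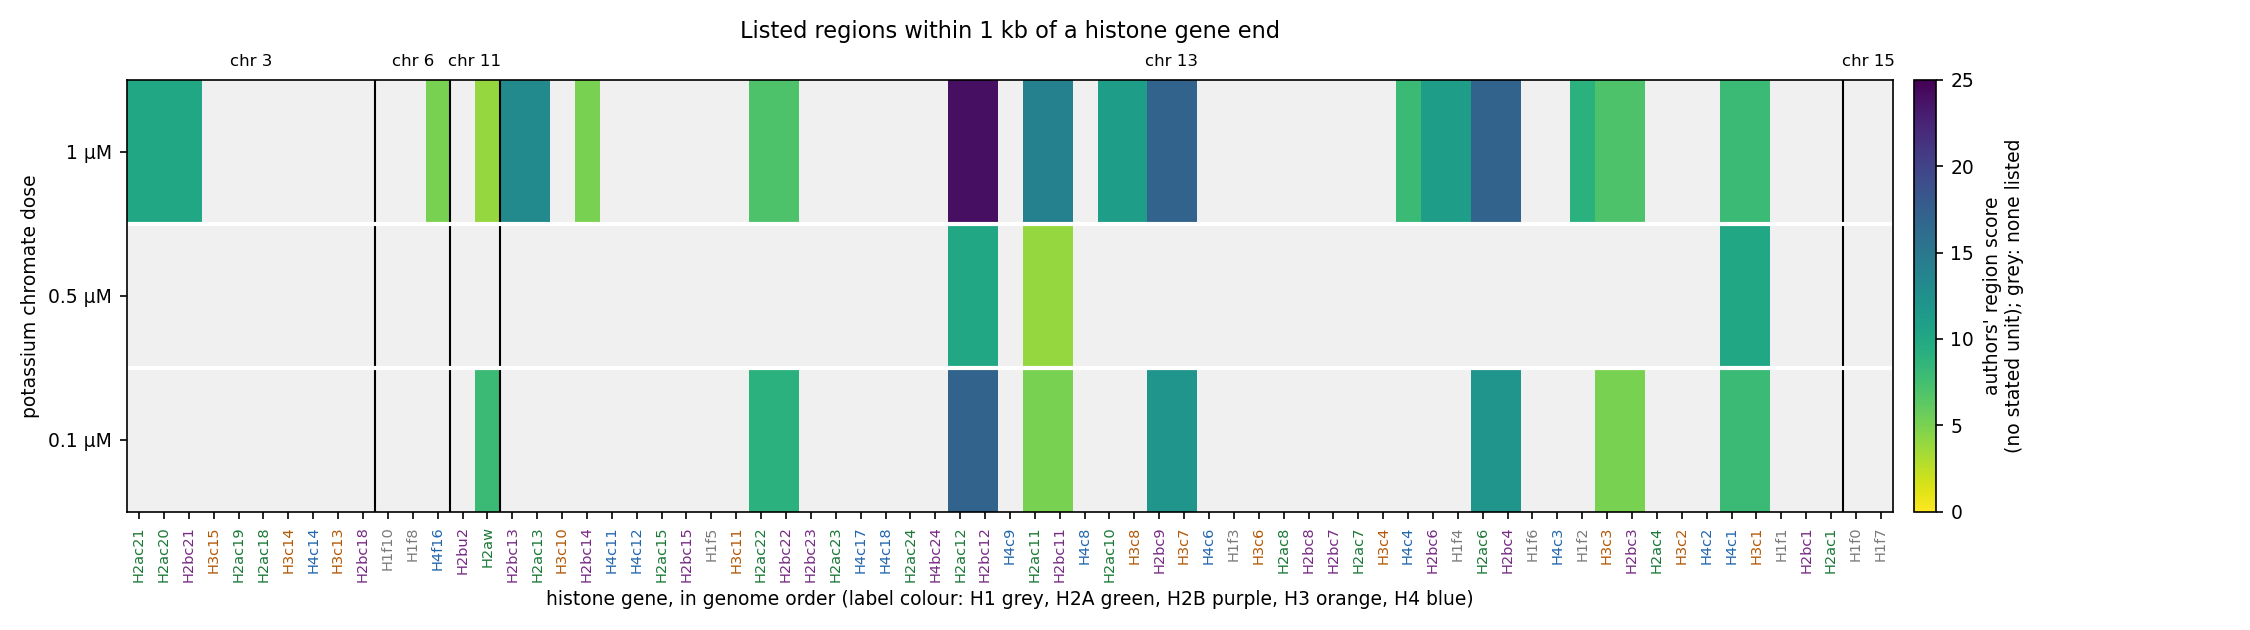
Each column is 1 of the 71 histone genes in genome order and each row a list, with colour for the authors' score of the highest region within 1 kb of a gene end and grey where none is listed. The 1 µM row holds 28 filled genes, the 0.1 µM row 15 and the 0.5 µM row 6, and neighbouring genes often share 1 region.

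By type, H2A and H2B genes had the highest shares in each list. Of 36 H2A and H2B genes, 11, 4 and 19 had a region at 0.1, 0.5 and 1 µM, or 30.6%, 11.1% and 52.8%. The shares over all protein-coding genes were 19.5%, 18.7% and 23.0%, so the 0.5 µM value was below the background. Of 35 H1, H3 and H4 genes, 4, 2 and 9 had one, or 11.4%, 5.71% and 25.7%, the last of which is near the background. H4 genes held a region in 1, 1 and 3 of 13 cases, H3 genes in 3, 1 and 4 of 12, and H1 genes in 0, 0 and 2 of 10. The H2A and H2B counts are not independent, as most of these genes stand in pairs.

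**Figure D2:**
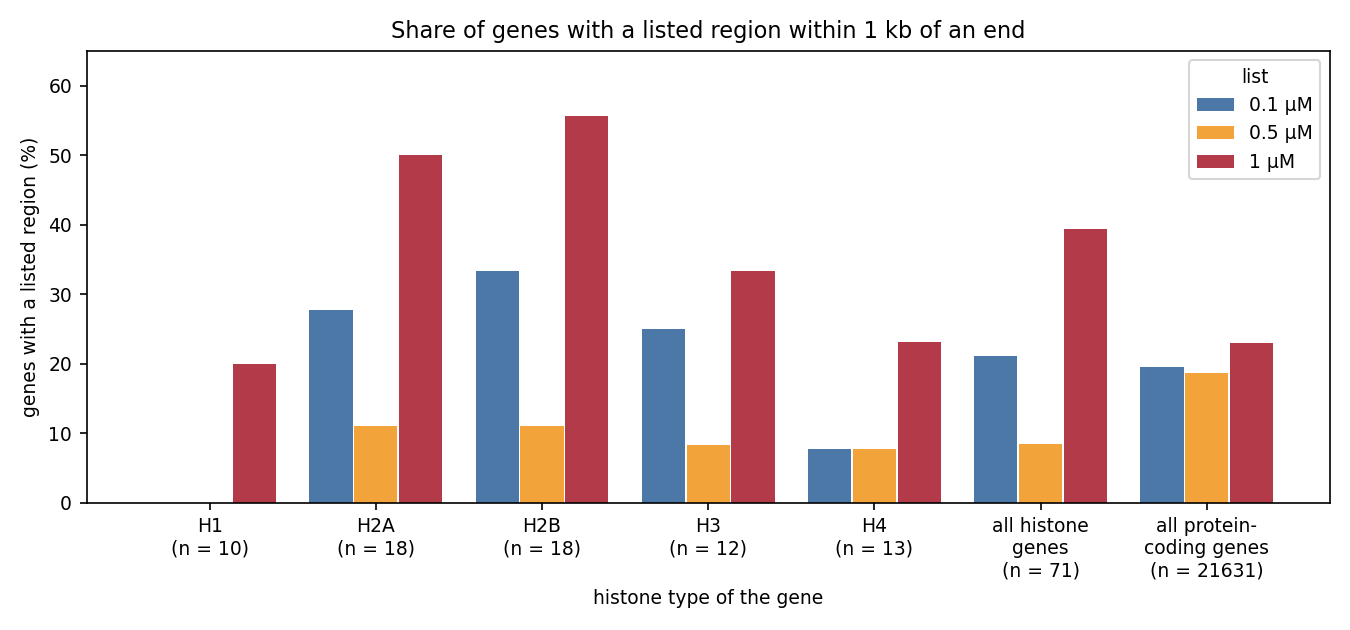
Bars give the percentage of genes with a listed region near an end (1 kb or less) at each dose, for each histone type, for all 71 histone genes and for all 21631 protein-coding genes. At 1 µM the bars of H2A (50%) and H2B (55.6%) stand above that of all protein-coding genes (23.0%), and at 0.5 µM the bar of every histone type stands below 18.7%.

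Regions were found at 9 of 15 pairs of adjacent H2A and H2B genes whose facing ends lie within 300 bp. Of these pairs, 12 have 2 protein-coding genes and 3 have a pseudogene on one side. At 0.1, 0.5 and 1 µM, 6, 2 and 9 of the 15 held a region that overlapped the stretch between the genes. Such pairs took 6 of 8, 2 of 3 and 9 of 17 regions at histone gene ends. All 3 pairs with a pseudogene (H2aw, H2bc14 and H2bc3 with their pseudogene neighbours) held a region at 1 µM, and 6 of 12 pairs of protein-coding genes did. Where strands were given for both genes, the pairs were divergent. Genes of these pairs had a region in 10, 4 and 15 of 27 cases (37.0%, 14.8% and 55.6%), and the other histone genes in 5, 2 and 13 of 44 (11.4%, 4.55% and 29.5%), against 19.5%, 18.7% and 23.0% of all protein-coding genes. At 0.5 µM both groups were below that share. Among the other histone genes, the 9 H2A or H2B genes had a region in 1, 0 and 4 cases (11.1%, 0% and 44.4%). The 35 H1, H3 and H4 genes had one in 4, 2 and 9 cases (11.4%, 5.71% and 25.7%). The groups thus differ in histone type as well as in pairing, and 1 region often counted both genes of a pair.

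Among the pairs, H2ac12/H2bc12 held the region with the highest score of any at a histone gene. Its score, a number per region from the authors with no stated scale, was 17 at 0.1 µM (13:22035619-22035871, 253 bp), 10 at 0.5 µM (13:22035529-22035779, 251 bp) and 24 at 1 µM (13:22035496-22035955, 460 bp). Within each list these scores ranked at percentiles 70.0, 49.3 and 76.9. The regions overlapped each other, and each overlapped the printed stretch.

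The H2ac11/H2bc11 pair scored 5 at 0.1 µM (13:22042858-22043246, 389 bp), 4 at 0.5 µM (13:22043047-22043245, 199 bp) and 14 at 1 µM (13:22042945-22043358, 414 bp). The 0.5 µM region had the smallest score (4) and width (199 bp) found in its list.

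Other pairs were listed at 0.1 and 1 µM only. H2ac6/H2bc4 scored 12 at 0.1 µM (473 bp) and 17 at 1 µM (342 bp). H2ac22/H2bc22 scored 9 (260 bp) and 7 (245 bp). H2aw, which codes for an H2A of the Hist3 cluster, scored 8 (253 bp) and 4 (302 bp), and H2bc3 scored 5 (273 bp) and 7 (248 bp), in a region that also lies within 1 kb of H3c3. At 1 µM alone, H2bc13/H2ac13 scored 13, H2ac20/H2bc21 of the Hist2 cluster scored 10 and H2bc14 scored 5. H2ac21 lies within 1 kb of the same Hist2 region. Scores are not read as differences between doses, as no replicate bears on them.

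The sequence make-up of pairs with and without a region overlapped. The stretch between the genes was 172 to 248 bp long (median 228) in the 9 pairs with a region and 163 to 280 bp (median 176) in the 6 without. GC content was 35.2% to 45.7% (median 42.4%) with a region and 38.5% to 47.9% (median 46.6%) without. Every stretch held at least 2 CCAAT boxes, and the octamer was present in 5 of 9 with a region and 2 of 6 without. The pairs without one were H2ac15/H2bc15, H2bc23/H2ac23, H2ac24/H4bc24, H2ac8/H2bc8, H2bc7/H2ac7 and H2bc1/H2ac1, the last of which codes for the testis histones TH2B and TH2A.

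H2A and H2B genes outside such pairs were within reach of 3 further loci. H2bc9 had a region over its start at 0.1 µM (13:23543349-23543661, score 12) and at 1 µM (13:23543254-23543625, score 17), within 1 kb of H3c7. H2bc6, annotated as a gene of 37455 bp, had the widest region, 802 bp at 1 µM (13:23620823-23621624, score 11), within 1 kb of H1f4, a linker histone gene. H2ac10 was counted for a region 807 bp away that lies at the start of H3c8 (13:23535185-23535419, 1 µM, score 11).

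H4 genes were listed at 3 places. At H4c1 a region lay just before the start at 0.5 µM (13:23761277-23761489, score 10) and 1 µM (13:23761253-23761552, score 8), over the sequence printed above. At 0.1 µM the region within 1 kb of H4c1 was another one, 986 bp away at one end of H3c1 (13:23762235-23762437, score 8), which overlapped a further region at 1 µM (13:23762390-23762628, score 7). H4c1 and H3c1 therefore had a region in every list, but not the same one. H4c4 had a region at 1 µM (13:23581407-23581665, score 8) over its start, and H4f16, the gene of the Hist4 locus, had one at 1 µM before it (6:136804945-136805222, score 5).

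Apart from H1f4, H1f2 was the H1 gene listed, at 1 µM (13:23738685-23738924, score 9) over its start. H1f2 and H1f4 code for linker histones found in most somatic cells. H1f1, H1f3 and H1f5, other somatic types, had no region within 1 kb of an end, and neither did H1f6, a testis linker histone, or the 4 genes outside the clusters.

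A region was within reach of 28 genes and 43 had none in any list. Without one were 8 H1 genes, 9 H2A (H2ac1, H2ac4, H2ac7, H2ac8, H2ac15, H2ac18, H2ac19, H2ac23 and H2ac24), 8 H2B (H2bc1, H2bc7, H2bc8, H2bc15, H2bc18, H2bc23, H4bc24 and H2bu2), 8 H3 (H3c2, H3c4, H3c6, H3c10, H3c11, H3c13, H3c14 and H3c15) and 10 H4 genes (H4c2, H4c3, H4c6, H4c8, H4c9, H4c11, H4c12, H4c14, H4c17 and H4c18). Nearest to the 1 kb limit at 1 µM, H3c3 lay 960 bp from a region and was counted, and H1f1 lay 1040 bp from one and was not. At 0.1 µM these were H4c1 at 986 bp and H1f1 at 1231 bp, and at 0.5 µM H3c1 at 396 bp and H4c9 at 1685 bp.

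Some histone promoters are copies of each other. The 250 bases before H2bc23 and H4bc24 were identical (100%), and those before H4c17 and H4c18 agreed in 99.2% of positions. By alignment over the full 250 bases, these 4 were the genes over 90% identity to another member among 42 unlisted genes with a sequence. There were 0 among 24 listed ones (highest 68.0%). A copy whose start is annotated elsewhere scores lower by this measure, so copied promoters can be missed. The 167 bp between H2bc23 and H2ac23 recur whole, in reverse complement, between H2ac24 and H4bc24, yet H2ac24 reached 57.6% at most. The list names carry the tag unique, with no statement of whether it refers to reads or regions. The sources used here do not otherwise say how the authors treated reads that map to several places. The part of such reads in the missing regions was not tested.

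Listed regions lay mostly at the starts of histone genes. Of the 28 regions over all lists, 22 covered an annotated histone gene start and 25 had their midpoint within 250 bp of one, with a median distance of 89.5 bp. The midpoint lay upstream of the nearest start with a known position in 27 of 28. At divergent pairs, any midpoint between the facing starts is upstream of both, so gene layout fixes this count in part. By list, 7 of 8, 3 of 3 and 15 of 17 midpoints lay within 250 bp. The exceptions were the regions near H3c1, whose start was not given, and the region 652 bp before H4f16. Histone genes are short, with a median length of 496 bp, so a window of 1 kb around each end spans the whole gene in most of them.

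**Figure D3:**
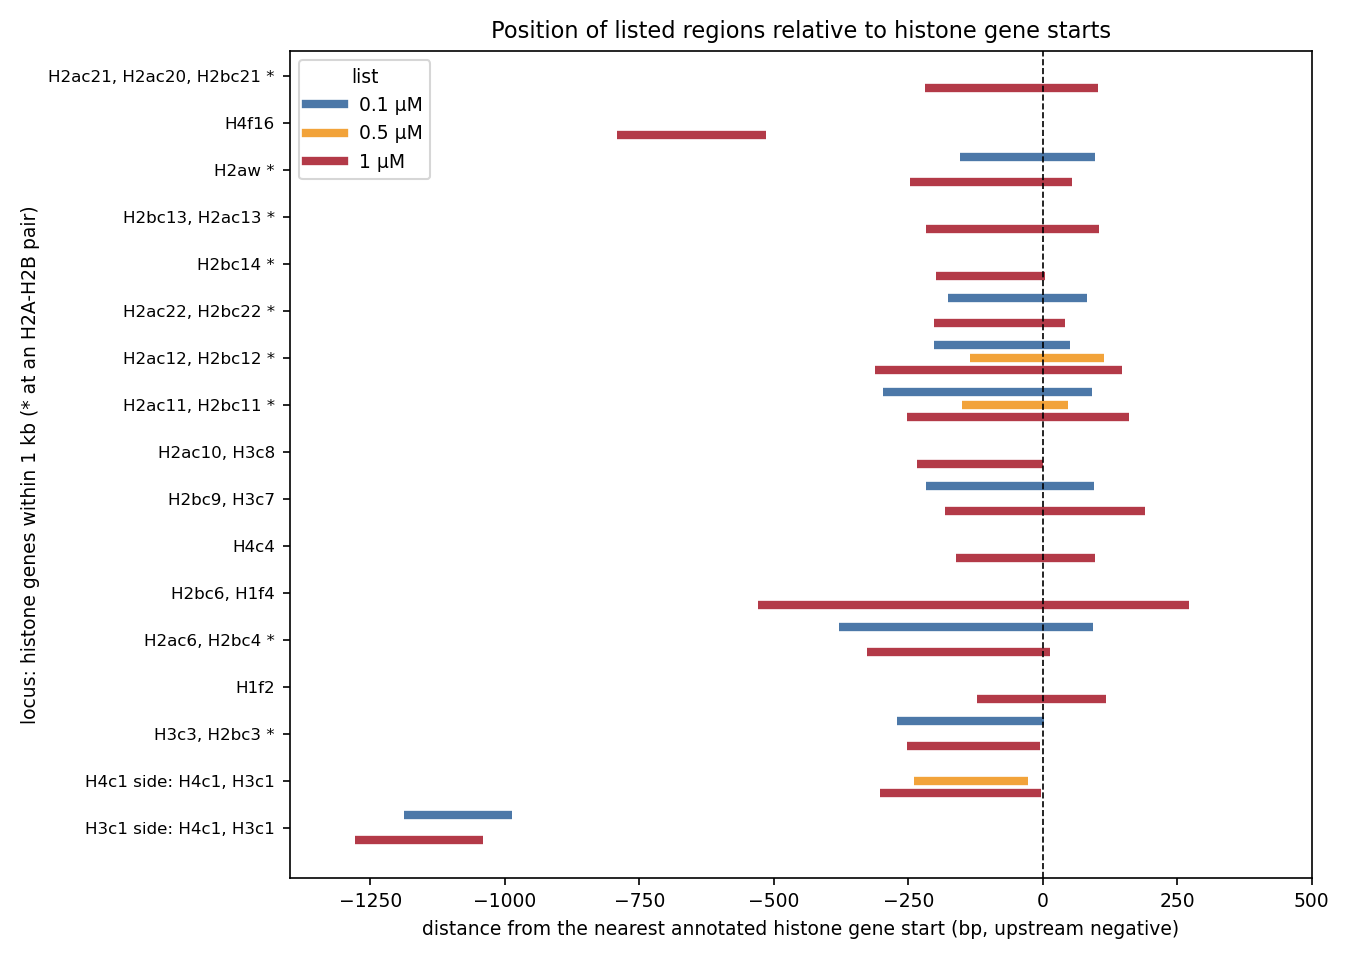
Bars show the extent of each listed region relative to the nearest annotated histone gene start, in bp with upstream negative, for the 17 loci and coloured by list. Most bars cross or touch the start, and that of H4f16 lies further upstream. Those of the H3c1 side are drawn from the starts of H4c1 and H1f1, as the start of H3c1 was not given.

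By their medians, regions at histone genes scored lower and were narrower than those at the ends of all protein-coding genes. The median score was 8.5, 10 and 9 at 0.1, 0.5 and 1 µM, against 12, 11 and 15 for regions at the ends of all protein-coding genes. These medians rest on 8, 3 and 17 regions at histone genes. The highest score was 17, 10 and 24, against 520, 240 and 479 among 4212, 3909 and 4862 regions at all protein-coding genes. A maximum tends to rise with the number of regions, so these maxima are not compared. Median rank percentiles by score were 34.4, 49.3 and 31.6, against 55.2, 54.8 and 57.4, and the median score of 10 at 0.5 µM is also that of its whole list. Median widths were 266.5, 213 and 300 bp, against 422, 377 and 431.5 bp.

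**Figure D4:**
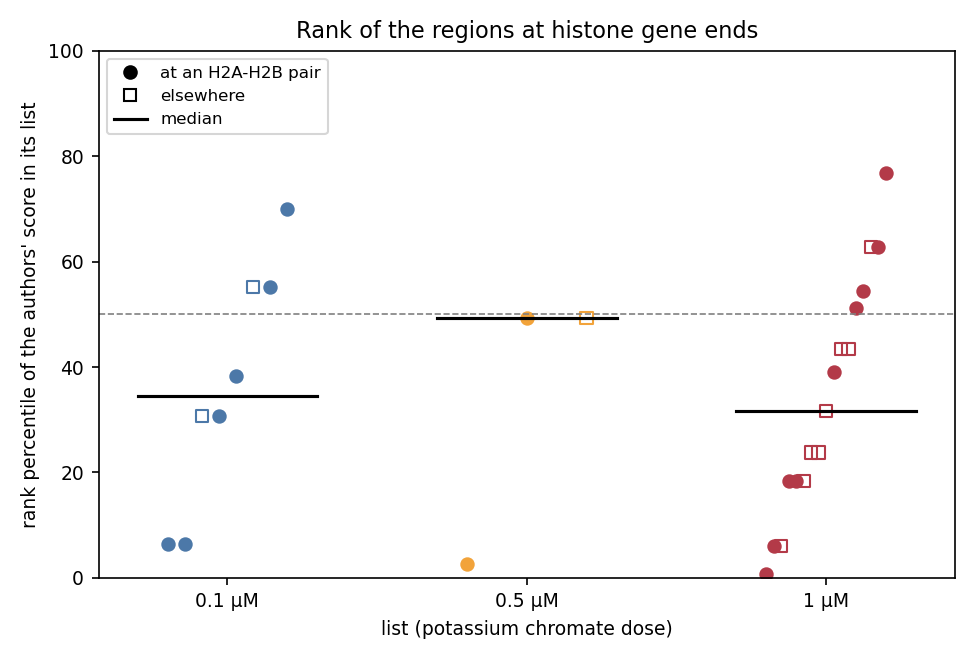
Each point is a region at a histone gene end, placed by the rank percentile of its score within its list, with circles at H2A-H2B pairs, squares elsewhere and a line at the median. The medians of 34.4, 49.3 and 31.6 lie below the dashed 50th percentile, and the highest point is the 1 µM region of H2ac12/H2bc12 at 76.9. At 0.5 µM, 49.3 is also the median of the whole list.

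Within the Hist1 cluster, the regions were unevenly spread. Neighbouring genes over 100 kb apart divide it into 4 segments. The segment from H2ac12 to H2bc11, with 5 genes in 8.54 kb, held 2 regions in each list, 1 at each of its H2A-H2B pairs. Each region counted both genes of its pair, so 4 of the 5 genes had one. The segment from H4c8 to H1f1 held 4, 1 and 9 regions, with 8, 2 and 14 of 29 genes counted. That from H2bc13 to H4bc24 held 1, 0 and 3, with 2, 0 and 5 of 18 genes counted. H2bc1 and H2ac1 form the last segment and had none. The shares over all protein-coding genes were 19.5%, 18.7% and 23.0%. The Hist2 cluster, with 10 genes in 50.3 kb, held 0, 0 and 1 region, and that region counted 3 of the 10 genes (30%) at 1 µM.

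The 50 other protein-coding genes inside the Hist1 span had a region in 4, 1 and 3 cases, or 8%, 2% and 6%. The 54 histone genes of the same span had one in 14, 6 and 23 cases, or 25.9%, 11.1% and 42.6%, and all protein-coding genes stood at 19.5%, 18.7% and 23.0%. Vomeronasal receptor genes, which act in pheromone sensing, make up 36 of the 50 and had a region in 0 of 36 cases in every list. The other 14 had one in 4, 1 and 3 cases (28.6%, 7.14% and 21.4%), namely the zinc finger genes Zfp184 (0.1 and 1 µM) and Zfp322a (every list), Abt1 (0.1 and 1 µM) and Btn1a1 (0.1 µM). Each of these 4 genes had a region that was not one of those at a histone gene.

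Genes that serve histone supply are given from lists chosen with earlier results of these data known. Genes of histone mRNA transcription and processing had a region in 9, 9 and 14 of 22 cases at 0.1, 0.5 and 1 µM (40.9%, 40.9% and 63.6%, against 19.5%, 18.7% and 23.0% of all genes). Listed in every dose were Casp8ap2 (scores 14, 16 and 17), which codes for FLASH, and Lsm11 (16, 11 and 19), a subunit of the U7 snRNP, both needed to form the mRNA end. Cdk2 (14, 10 and 23) and Ccne2 (7, 6 and 8), the kinase and a cyclin E that act on the coactivator NPAT, were too, as were Pou2f1 (14, 5 and 13), which codes for the octamer factor OCT1, and the cleavage factor genes Cstf2 (18, 24 and 41) and Cstf2t (115, 77 and 144). Npat itself (9), Hinfp (5) and Lsm10 (6) were listed at 1 µM. Slbp, the gene of the stem-loop binding protein, was in no list, and neither were Cpsf1, Sympk, Srrt, Ncbp1, Ncbp2, Eri1 and Coil.

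Histone chaperones and assembly factors had a region in 11, 12 and 14 of 22 cases, or 50%, 54.5% and 63.6%. The shares of all protein-coding genes were 19.5%, 18.7% and 23.0%. Listed in every dose were Asf1a, Asf1b, Chaf1a, Chaf1b, Atrx, Rbbp7, Ssrp1, Nap1l1, Nap1l4 and Npm1. Ssrp1, a subunit of the FACT complex, scored 64, 41 and 91, and Chaf1a, the large subunit of CAF-1, which places histones on new DNA, scored 18, 18 and 53. Replication-independent histone variants had a region in 2, 4 and 5 of 9 cases, or 22.2%, 44.4% and 55.6%, with H2az1 (19, 15 and 23) and H2aj (27, 15 and 27) in every list. At 0.5 µM, where 8.45% of the 71 genes (8.96% of the 67 inside the clusters) had a region, these lists thus stood at 40.9% (mRNA), 54.5% (chaperones) and 44.4% (variants), and no test was made of the difference.

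Of 14 hepatocyte lineage genes, set against the cell label, 3, 4 and 5 had a region (21.4%, 28.6% and 35.7%, against 19.5%, 18.7% and 23.0% of all protein-coding genes), among them Apoa2, Foxa2 and Krt8 in every list, while 9 of the 14, with Alb, Afp, Ttr and Hnf4a among them, had none in any list. At 0.1 µM this share is near the background. Of 9 markers of other cell types, 0, 1 and 1 had one, which was Dcn both times.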

How the data were processed

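The files are 3 region lists, 1 per treated dose. Each holds positions and a whole-number score per region as deposited by the authors, with scale, cut-off, Tn5 shift, duplicate handling and use of the untreated libraries not stated in the sources used here. Per the submitters' processing notes, the tools were Bowtie2, MACS2 and Picard and the build was mm10, and these notes give no version or role. The lists give no read counts, so the depth per library is unknown. The replicate numbers of the libraries are only names.

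Gene positions came from RefSeq (GRCm38.p6), and all positions are 1-based. A region was assigned to a gene when at least 1 bp lay within 1 kb of either end. Strands and starts came from the RefSeq promoter table. H2A-H2B pairs are adjacent genes with at most 300 bp between them. Scores were ranked within each list, and promoter identity is from global alignment with edlib. Python 3.11.15, pandas 2.3.3, numpy 2.4.6 and matplotlib 3.10.9 were used. The assignment was tested on simulated regions. The members and lists were chosen with earlier results of these data known. Histone genes with a region are all named; of the other lists, genes in every list are named. A promoter was to be printed for the best-ranked gene of a type with a region in all lists, which gave H2ac12 and H2bc12. The other stretches, Npat, Hinfp, Slbp, the other histone mRNA genes in no list and the marker genes without a region were chosen after their values were seen. No test was run.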

Additional observations from a re-analysis of the deposited data

How the results depend on the processing

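The counts of histone genes, of regions (all and by type), of loci in all 3 lists and of other genes in the Hist1 span were recomputed with windows of 500 bp and 2.5 kb, region midpoints, only regions above the median score or the median width of their list, and lists of equal length (11130 regions). The count of histone genes with a region was also recomputed at annotated starts only, without the 4 linker histone genes outside the clusters, and with current symbols only. Equal length and current symbols were added after seeing the data. Above the median score, histone genes with a region numbered 6, 0 and 8 at 0.1, 0.5 and 1 µM (8.45%, 0% and 11.3%, against 11.2%, 10.8% and 13.3% of all genes), with 3, 0 and 4 regions, and other genes of the Hist1 span 1 at 0.1 µM and 0 at 1 µM. Above the median width the histone genes numbered 4, 0 and 8 (5.63%, 0% and 11.3%, against 13.3%, 12.2% and 15.4%), with 2, 0 and 4 regions, and other genes 1 at 0.1 µM. Loci in all 3 lists, 2 as reported, numbered 0 under both of these, 1 with lists of equal length and 1 with a reciprocal overlap of 50%. With lists of equal length, histone genes numbered 17 and regions 8 at 1 µM, and other genes 2 at 0.1 µM, as with 500 bp. The score and width settings hold fewer regions by construction, as does equal length at 0.1 and 1 µM. At 0.5 µM equal length keeps the whole list of 11130 regions, so no value there could change. The 4 linker histone genes outside the clusters have no region in any list, so leaving them out could not change a count. With these fixed values included, the other 47 values of these counts stayed within 1.5 times. Of the counts by histone type 63 did and 27 did not. With 1 list per dose no library could be left out. No paired analysis was possible because the lists carry no replicates.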
